A study of Homo sapiens with 8 samples.

Results

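RNA of 8 genes that encode aldo-keto reductases and carbonyl reductases is described here in IMR90 fibroblasts: AKR1A1, AKR1B1, AKR1B10, AKR1C1, AKR1C2, AKR1C3, CBR1 and CBR3. The genes were chosen by name, with earlier results of these data known, and all 8 were found among the 28265 genes that were counted. Relative to all counted RNA, every one of them was higher after 3 days and after 6 days of ICM than in young cells. The fold differences after 3 days ran from 1.57 for AKR1A1 to 39.0 for AKR1B10. In the libraries labelled MetaICM, none of the 8 was called higher than in young cells, against 7.41% of all genes. AKR1B10, AKR1C1 and AKR1C2 were called lower, against 8.99% of all genes. Of these, the calls of AKR1B10 and AKR1C2 were lost under some alternatives.

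Aldo-keto reductases and carbonyl reductases use NADPH to turn aldehydes and ketones into alcohols. Their substrates include products of lipid peroxidation, sugars, retinal, steroids, prostaglandins and quinones, so that the same enzymes serve both in detoxification and in hormone metabolism. Several of them, AKR1B10 and the AKR1C genes among them, are known targets of NRF2, a transcription factor encoded by NFE2L2 that KEAP1 holds in check and that binds antioxidant response elements in DNA.

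IMR90 is a line of human fetal lung fibroblasts, here at low passage in every group, and ICM (inflachromene) is a small compound known to bind proteins of the HMGB family. The 4 groups of 2 libraries each are young (wild type cells, for which the labels give neither a treatment nor a vehicle), ICM_3days and ICM_6days (cells kept in ICM for 3 or 6 days) and MetaICM, a treatment that the labels name without defining it. RNA was profiled by factory RNA-Seq, which is meant to capture RNA still attached to the sites of transcription. The protocol that accompanies the libraries gives whole-cell lysis and poly(A) selection, and the counts are of read pairs on exons, so nascent and mature RNA cannot be told apart in them.

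The libraries held 12095123 to 23166405 counted pairs. All 9 fibroblast markers examined, such as FN1 and COL1A1, were present in every group. Their summed level was 54599 to 60533 CPM (counts per 1000000 counted pairs, scaled by TMM, edgeR's correction for library composition) in young cells, 26534 to 27374 after 3 days of ICM, 20966 to 21163 after 6 days and 34621 to 37608 in MetaICM. Epithelial markers summed to at most 1.29 CPM and endothelial markers to at most 6.66 CPM, and NKX2-1 and CD3E, which define lung epithelium and T cells, were at 0 in every library. Of 4 blood cell markers, CD68, a lysosomal protein, had the highest value in each group, and the sum of the 4 was 4.39 to 6.01 CPM in young cells, 16.9 to 21.2 after 3 days, 18.0 to 20.5 after 6 days and 13.0 to 13.2 in MetaICM. The part of these shifts in the results below was not tested. In such bulk samples, fewer cells that express a gene and less RNA per cell cannot be told apart.

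Conditions were compared 2 at a time. A gene was called higher or lower at an adjusted p under 0.05 (quasi-likelihood test of edgeR, adjusted by the method of Benjamini and Hochberg over all genes tested) and an absolute log2 fold change (log2FC) over 0.6. After 3 days of ICM, all 8 reductases were called higher than in young cells and none lower, against 8.85% of all genes called higher and 13.2% called lower. Their median log2FC was 2.77, and that of all genes was 0.01. After 6 days, again all 8 were called higher, with a median of 2.27, against 13.3% of all genes called higher and 17.2% lower. In both comparisons, each ICM library was above both young libraries for every one of the 8 genes, as it was for 33.7% of all genes tested after 3 days and 36.6% after 6 days. Of all counted pairs, the 8 genes together took 0.0191% to 0.0306% in young cells, 0.220% to 0.241% with ICM and 0.0215% to 0.0226% in MetaICM. The 2 comparisons share the young libraries, of which replicate 1 was higher than replicate 2 for each of the 8 genes.

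**Figure D1:**
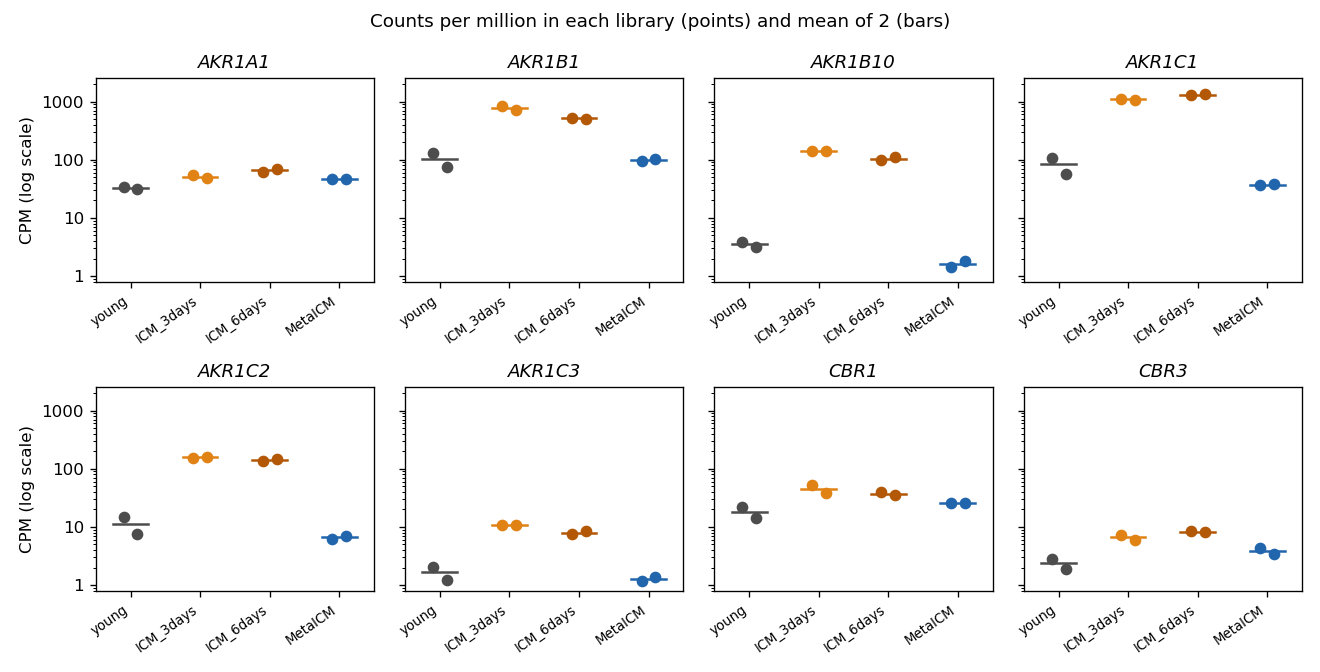
Level of each of the 8 genes in CPM (vertical axis, log scale) in the 2 libraries of each condition (points), with their mean (bar). All ICM points lie above the young points in every panel, and the MetaICM points lie below all ICM points.

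AKR1B1 encodes aldose reductase, which turns glucose into sorbitol in the polyol pathway, and AKR1B10 a relative that reduces retinal and other aldehydes. They neighbour each other on chromosome 7 of GRCh37 (hg19), AKR1B1 at 134127102 to 134143991 on the minus strand and AKR1B10 at 134212319 to 134226164 on the plus strand, 68328 bases apart. For AKR1B10, CPM was 3.93 and 3.15 in the young libraries, 141 and 139.6 after 3 days of ICM, 97.3 and 111 after 6 days and 1.44 and 1.82 in MetaICM. Young and MetaICM libraries were at a few CPM, and every ICM library was more than an order of magnitude above them. The log2FC, here and below given ± its standard error (SE), was 5.29 ± 0.17 after 3 days (39.0-fold, adjusted p = 6.15e-09, edgeR) and 4.85 ± 0.17 after 6 days (28.9-fold, adjusted p = 3.34e-08, edgeR), the largest among the 8 at both times. For AKR1B1, CPM was 131 and 74.9 in the young libraries, 829 and 713 after 3 days of ICM, 532 and 498 after 6 days and 95.9 and 104 in MetaICM. Its libraries did not overlap between young and ICM, whereas both MetaICM libraries lay between the values of the 2 young ones. AKR1B1 rose by a log2FC of 2.90 ± 0.22 after 3 days (7.46-fold, adjusted p = 1.11e-06, edgeR) and of 2.31 ± 0.21 after 6 days (4.97-fold, adjusted p = 1.42e-05, edgeR). The coding sequences of this pair are 76.1% identical, with no identical run longer than 22 bases. AKR1B10 is closer to AKR1B15, at 85.9%, and 2.44% of its exon windows of 100 bases occur exactly in AKR1B15, which itself had 3 and 1 counts in the young libraries, 4 and 2 after 3 days, 1 and 1 after 6 days and none in MetaICM.

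The 3 AKR1C genes encode steroid reductases and stand together on chromosome 10. AKR1C1 (5005607 to 5025474, plus strand) reduces progesterone, AKR1C2 (5029968 to 5060225, minus strand) inactivates dihydrotestosterone, and AKR1C3 (5090958 to 5149878, plus strand) makes testosterone and prostaglandin F. AKR1C1 and AKR1C2 face each other with 4494 bases between them. Their coding sequences are 98.0% identical over 969 bases, and AKR1C3 is 91.4% identical to AKR1C1. To show how little separates the reads of these genes, coding exon 2, which holds 10 of the 19 differences between the first pair, is printed below 5′ to 3′ on each gene's own strand from GRCh37 (AKR1C1 at chr10:5008106-5008273, AKR1C2 at chr10:5043706-5043873 on the minus strand, AKR1C3 at chr10:5138602-5138769). Capitals mark the bases that differ from AKR1C1.
AKR1C1: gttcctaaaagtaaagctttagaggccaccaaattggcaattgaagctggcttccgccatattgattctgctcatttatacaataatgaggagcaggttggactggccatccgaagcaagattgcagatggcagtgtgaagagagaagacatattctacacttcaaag
AKR1C2: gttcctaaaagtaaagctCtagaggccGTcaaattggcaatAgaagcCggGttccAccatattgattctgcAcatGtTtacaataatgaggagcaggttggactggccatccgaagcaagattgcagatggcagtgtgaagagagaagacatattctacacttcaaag
AKR1C3: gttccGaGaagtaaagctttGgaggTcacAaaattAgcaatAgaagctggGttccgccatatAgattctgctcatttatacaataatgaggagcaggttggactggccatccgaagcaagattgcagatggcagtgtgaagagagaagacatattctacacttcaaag

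In these lines the differences lie in the left part of the exon, and the right part is the same in all 3 genes. Of all windows of 100 bases within an exon, 22.8% in AKR1C1, 23.6% in AKR1C2 and 7.38% in AKR1C3 were found exactly at another place of GRCh37, and of windows of 50 bases 35.3%, 42.9% and 12.8%. Most such windows of AKR1C1 and AKR1C2 that fell in exons of another gene were shared between these 2, with 578 windows of 100 bases in common. A pair whose both ends fall in such stretches has no single place of origin. The file headers name an option that counts primary alignments, and whether such pairs entered the counts at one of their places was not tested. The counts of AKR1C1, AKR1C2 and AKR1C3 are therefore uncertain to the extent that pairs could be placed in either copy. AKR1A1, CBR1 and CBR3 had no window of 50 bases elsewhere in the genome, AKR1B1 had 4.69% and AKR1B10 had 17.8%. AKR1B10 was thus above AKR1C3 at 50 bases but below it at 100 bases, with 2.44% against 7.38%. The counts of AKR1B10 therefore carry an uncertainty of the same kind, with fewer long windows affected than in the AKR1C genes.

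**Figure D2:**
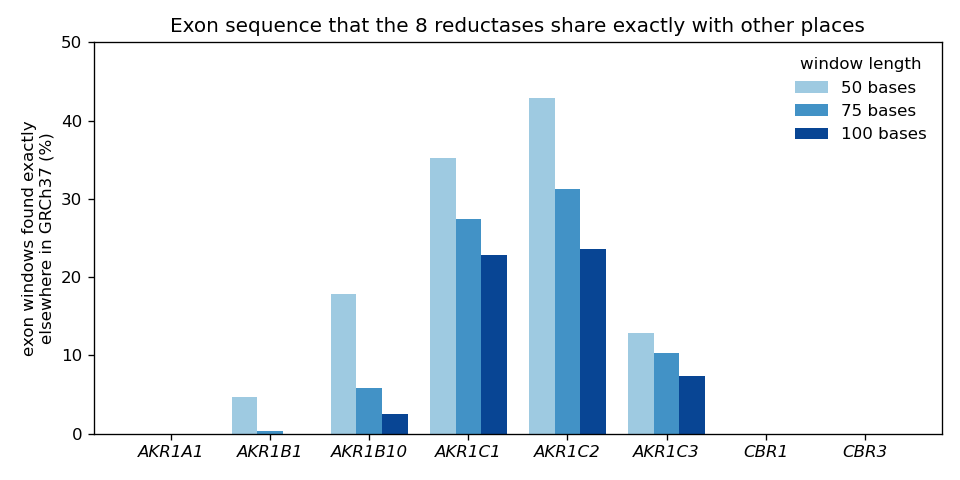
Percent of all exon windows of 50, 75 and 100 bases (bars) in each of the 8 genes that occur exactly at another place of GRCh37, on either strand. AKR1C2 and AKR1C1 share most, with 42.9% and 35.3% at 50 bases, and AKR1A1, CBR1 and CBR3 stand at 0.

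AKR1C1 had the highest CPM of the 3 in every library. Its CPM was 109 and 58.0 in the young libraries, 1107 and 1077 after 3 days of ICM, 1290.1 and 1342 after 6 days and 36.5 and 38.1 in MetaICM. The young libraries were far below those with ICM and above those of MetaICM. Its log2FC was 3.71 ± 0.24 after 3 days (13.1-fold, adjusted p = 2.82e-07, edgeR) and 3.97 ± 0.25 after 6 days (15.7-fold, adjusted p = 8.56e-07, edgeR). For AKR1C2, CPM was 14.9 and 7.71 in the young libraries, 156 and 156 after 3 days of ICM, 134 and 145 after 6 days and 6.14 and 7.04 in MetaICM. As for AKR1C1, the young libraries lay far below those with ICM and above those of MetaICM, though the lower of them was close to MetaICM. AKR1C2 rose 13.5-fold after 3 days (log2FC 3.76 ± 0.23, adjusted p = 1.77e-07, edgeR) and 12.1-fold after 6 days (log2FC 3.59 ± 0.23, adjusted p = 9.90e-07, edgeR). For AKR1C3, CPM was 2.08 and 1.24 in the young libraries, 10.6 and 10.7 after 3 days of ICM, 7.63 and 8.40 after 6 days and 1.19 and 1.39 in MetaICM. These values rest on 15 to 35 counts in the young libraries and 24 to 32 in MetaICM, and the young and MetaICM libraries overlapped, while all ICM libraries lay above them. AKR1C3 was 6.20-fold higher after 3 days (log2FC 2.63 ± 0.28, adjusted p = 2.08e-05, edgeR) and 4.66-fold higher after 6 days (log2FC 2.22 ± 0.27, adjusted p = 1.11e-04, edgeR).

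Because they share so much sequence, the 3 genes were also taken as shares of their joint counts, which were 808 to 2110 in young cells, 18439 to 28122 with ICM and 885 to 1071 in MetaICM. AKR1C1 made up 86.5% to 86.6% in the young libraries, 86.6% to 86.9% after 3 days, 89.7% to 90.1% after 6 days and 81.9% to 83.3% in MetaICM. The share of AKR1C3 was lower with ICM and higher in MetaICM than in young cells, with 1.66% to 1.86% in young, 0.835% to 0.857% after 3 days, 0.533% to 0.562% after 6 days and 2.71% to 2.99% in MetaICM. The share of AKR1C2 lay between 9.37% and 15.1% throughout, lowest after 6 days and highest in MetaICM. Summed with AKR1C4, the locus stood at 96.3 ± 41.6 CPM (SD, n = 2) in young cells, 1260 ± 20.7 after 3 days, 1464 ± 44.7 after 6 days and 45.2 ± 1.86 in MetaICM. With this sum in place of the single genes, the log2FC was 3.70 after 3 days and 3.92 after 6 days, close to that of AKR1C1 and larger than that of AKR1C3.

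The sequence similarity of AKR1C1 and AKR1C2 extends upstream of their starts, and whether it bears on their levels was not tested. In RefSeq windows of 300 bases around the gene starts (GRCh38.p14, 250 bases before and 50 after), 6 of the 8 genes have an entry, and those of AKR1C1 and AKR1C2 were 97.3% identical over 296 aligned positions. AKR1C3 has 2 windows for separate starts, of which the closer one was 75.7% identical to AKR1C1. The 250 bases before the start are printed below 5′ to 3′ on each gene's strand for AKR1C1 (chr10:4963165-4963414) and AKR1C2 (chr10:5003858-5004107, minus strand), where the capitals in AKR1C1 are 4 bases that AKR1C2 lacks.
AKR1C1: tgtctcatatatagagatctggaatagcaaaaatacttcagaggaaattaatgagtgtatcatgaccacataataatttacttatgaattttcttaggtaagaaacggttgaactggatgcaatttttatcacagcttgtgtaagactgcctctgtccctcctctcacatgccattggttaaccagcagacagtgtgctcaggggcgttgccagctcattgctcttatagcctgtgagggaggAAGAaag
AKR1C2: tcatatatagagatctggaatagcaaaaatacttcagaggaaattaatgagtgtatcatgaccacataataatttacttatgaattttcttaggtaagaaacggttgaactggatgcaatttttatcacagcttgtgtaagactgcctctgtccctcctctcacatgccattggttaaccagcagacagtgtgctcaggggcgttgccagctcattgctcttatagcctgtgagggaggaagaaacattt

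Apart from these 4 bases and the offset of the starts, no base differs between both lines. All 8 windows of the 6 genes were searched on both strands for TGACNNNGC, the core of the antioxidant response element, and TGANTCA, the AP-1 motif, which can overlap each other. The window of CBR1 held the first motif, on the minus strand at position −159 from the start, and none of the other windows held either. Sequence outside these windows was not searched, and AKR1B10 and CBR3 had no window. Among all 35116 windows, 13.3% held TGACNNNGC, 7.71% TGANTCA and 1.42% both. The CBR1 sequence is shown because it is the single match, as the 250 bases before the start (chr21:36069774-36070023, plus strand) with the motif, reversed, in capitals.
CBR1: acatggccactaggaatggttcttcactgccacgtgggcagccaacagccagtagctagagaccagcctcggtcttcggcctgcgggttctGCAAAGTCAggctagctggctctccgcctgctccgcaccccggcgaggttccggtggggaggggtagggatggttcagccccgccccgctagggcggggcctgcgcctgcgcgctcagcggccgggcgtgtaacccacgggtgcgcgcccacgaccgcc

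CBR1 encodes a short-chain dehydrogenase that reduces quinones, prostaglandin E and anthracycline drugs, and CBR3 a relative with a narrower range of substrates. Both lie on the plus strand of chromosome 21 in GRCh37, CBR1 at 37442322 to 37445462 and CBR3 at 37507377 to 37518860, and their coding sequences are 77.0% identical. For CBR1, CPM was 22.1 and 14.0 in the young libraries, 52.4 and 38.5 after 3 days of ICM, 39.1 and 35.1 after 6 days and 25.3 and 26.2 in MetaICM. The ICM libraries lay above all others, and MetaICM lay between young and ICM. CBR1 rose by a log2FC of 1.32 ± 0.21 after 3 days (2.50-fold, adjusted p = 6.67e-04, edgeR) and of 1.02 ± 0.19 after 6 days (2.03-fold, adjusted p = 0.00176, edgeR). For CBR3, CPM was 2.86 and 1.91 in the young libraries, 7.27 and 6.00 after 3 days of ICM, 8.65 and 8.03 after 6 days and 4.26 and 3.39 in MetaICM. The order was again young, MetaICM, ICM, without overlap. CBR3 rose 2.74-fold after 3 days (log2FC 1.46 ± 0.28, adjusted p = 0.00228, edgeR) and 3.42-fold after 6 days (log2FC 1.77 ± 0.24, adjusted p = 2.66e-04, edgeR). Pairs were counted without regard to strand, and exons of an antisense gene cover 381 of the 1839 exon bases of CBR1 (LOC100133286) and 100 of the 998 of CBR3 (CBR3-AS1). The log2FC of CBR3-AS1 was 0.37 ± 0.41 after 3 days and 0.77 ± 0.36 after 6 days, and neither was called (adjusted p = 0.537 and 0.112, edgeR).

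AKR1A1 encodes aldehyde reductase, which is found in most tissues and reduces glucuronate and many aldehydes, and lies on chromosome 1 (46016455 to 46035723, plus strand). Its CPM was 34.3 and 30.9 in the young libraries, 53.8 and 49.0 after 3 days of ICM, 62.0 and 69.6 after 6 days and 46.9 and 46.0 in MetaICM. The MetaICM libraries lay between young and ICM. The log2FC was 0.65 ± 0.14 after 3 days (1.57-fold, adjusted p = 0.00458, edgeR) and 1.01 ± 0.13 after 6 days (2.01-fold, adjusted p = 1.48e-04, edgeR). It was the smallest of the 8 at both times, though after 6 days close to CBR1 at 1.02 ± 0.19. The 3-day call of AKR1A1 depended on 2 libraries. Without young replicate 2 its log2FC was 0.57 (adjusted p = 0.00325, edgeR), under the cutoff, and without ICM_3days replicate 1 it was 0.57 (adjusted p = 0.0858, edgeR).

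**Figure D3:**
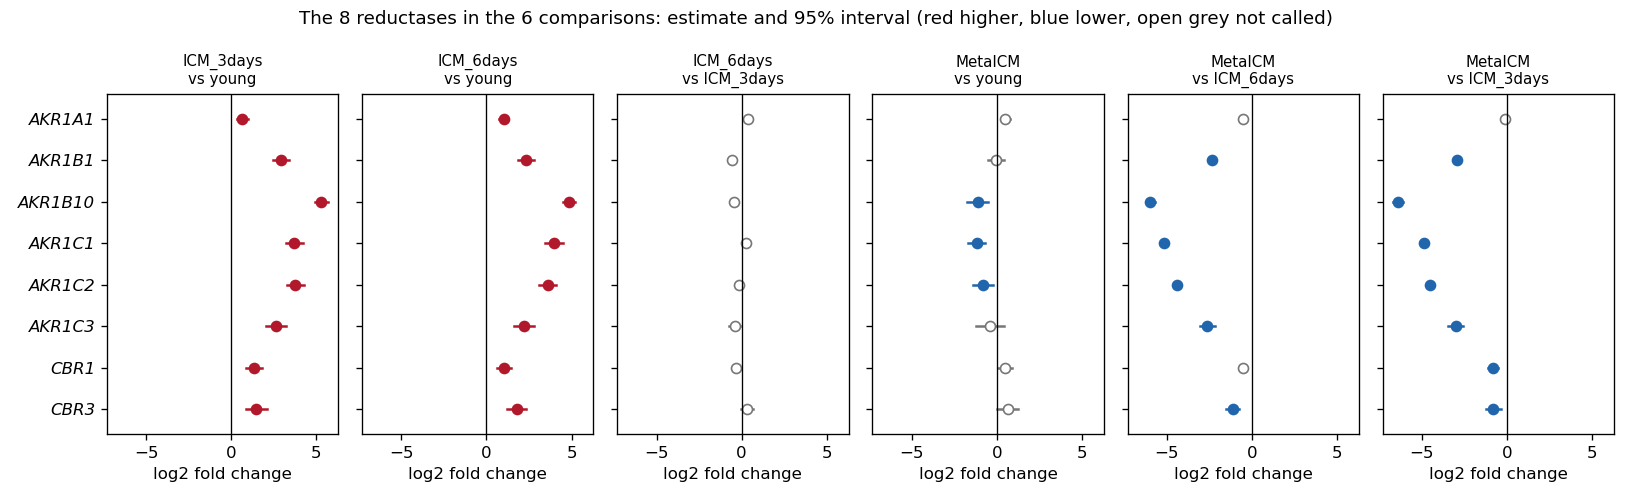
log2 fold change (horizontal axis) of each gene in the 6 comparisons of conditions, with its 95% interval from edgeR (lines). Filled red points were called higher and filled blue points lower in the condition named first, and open grey points were not called.

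To compare levels between genes, CPM was divided by the length of each gene's exons in kb. Per kb, AKR1B1 had the highest mean and AKR1C3 the lowest in all 4 conditions. This order depends on the lengths used, which were 6542 bases for AKR1C1 and 2104 for AKR1B1. Before the division, AKR1C1 had a higher mean CPM than AKR1B1 with ICM, 1092 against 771 after 3 days and 1316 against 515 after 6 days. AKR1B1 stood at 49.0 ± 18.9 CPM per kb (SD, n = 2) in young cells and 367 ± 39.2 after 3 days, and AKR1C3 at 0.856 ± 0.306 and 5.48 ± 0.0118. AKR1A1 followed AKR1B1 in young cells with 20.6 ± 1.51, ahead of AKR1C1 with 12.7 ± 5.47 and CBR1 with 9.82 ± 3.13, which overlap within their SDs, while CBR3, AKR1C2 and AKR1B10 lay between 2.18 and 2.72, which their SDs of up to 1.22 do not separate. After 3 days, AKR1C1 was second with 167 ± 3.26 and AKR1B10 next with 86.6 ± 0.489, followed by AKR1C2 with 37.6 ± 0.124, AKR1A1 with 32.5 ± 2.17, CBR1 with 24.7 ± 5.32 and CBR3 with 6.65 ± 0.896. After 6 days, AKR1B1 at 245 ± 11.4 and AKR1C1 at 201 ± 5.57 had come closer, and AKR1B10 stood at 64.2 ± 5.80. In MetaICM, AKR1A1 was second at 29.4 ± 0.407 and AKR1B10 seventh at 1.01 ± 0.169, the places they held in young cells.

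Between 3 and 6 days of ICM, none of the 8 genes was called in either direction, against 3.53% of all genes called higher and 4.54% lower after 6 days, and their median log2FC was −0.24. At an unadjusted p under 0.05 (edgeR), 2 were higher and 4 lower, against 15.9% and 16.4% of all genes, and DESeq2 called none. By an adjusted p under 0.05 without the cutoff of 0.6, 2 were higher and 2 lower, against 9.66% and 9.66% of all genes. AKR1B1 stood lower after 6 days (log2FC −0.59 ± 0.09, adjusted p = 1.79e-04, edgeR), as did AKR1B10 (log2FC −0.44 ± 0.09, adjusted p = 0.00230, edgeR). AKR1A1 stood higher (log2FC 0.35 ± 0.10, adjusted p = 0.0209, edgeR), and so did AKR1C1 (log2FC 0.26 ± 0.09, adjusted p = 0.0354, edgeR). The adjusted p rose above 0.05 without ICM_6days replicate 1 for AKR1B10 (0.115, edgeR), without ICM_6days replicate 2 for AKR1A1 (0.303, edgeR) and without either of them for AKR1C1 (0.0789 and 0.217, edgeR). For the other 4, the 95% interval of the log2FC was −0.35 to 0.02 for AKR1C2, −0.75 to −0.07 for AKR1C3, −0.57 to −0.04 for CBR1 and −0.07 to 0.69 for CBR3, with adjusted p of 0.203, 0.0825, 0.105 and 0.248 (edgeR). AKR1B1 is close to the cutoff and passed it without ICM_3days replicate 2 (log2FC −0.70) and without ICM_6days replicate 1 (log2FC −0.62).

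MetaICM was compared with young cells and with both ICM times. Against young cells, none of the 8 was called higher and 3 were called lower, against 7.41% and 8.99% of all genes, and the median log2FC was −0.23. At an unadjusted p under 0.05 (edgeR), 3 were higher, against 19.9% of all genes. DESeq2 called none of the 8 higher and 1 lower. AKR1C1 had a log2FC of −1.17 ± 0.23 (adjusted p = 0.00537, edgeR), AKR1B10 of −1.12 ± 0.28 (adjusted p = 0.0161) and AKR1C2 of −0.80 ± 0.27 (adjusted p = 0.0475). In each of them both MetaICM libraries lay below both young libraries, as in 33.6% of all genes tested. The calls of AKR1B10 and AKR1C2 turned on single libraries. Without young replicate 1, which had the higher values, the log2FC of AKR1C1 was −0.63 and still called, whereas that of AKR1C2 was −0.22 (adjusted p = 0.417, edgeR). Without MetaICM replicate 1 or 2, AKR1B10 (adjusted p = 0.145 and 0.0691, edgeR) and AKR1C2 (adjusted p = 0.182 and 0.100, edgeR) were no longer called.

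The other 5 genes were not called between MetaICM and young cells. AKR1A1, CBR1 and CBR3 had both MetaICM libraries above both young ones, as had 34.7% of all genes tested, with log2FC of 0.51 ± 0.12 (adjusted p = 0.0126, edgeR), 0.49 ± 0.19 (adjusted p = 0.0741) and 0.65 ± 0.28 (adjusted p = 0.110). Without young replicate 1, CBR1 was called higher at 0.88 (adjusted p = 7.73e-08, edgeR) and CBR3 at 1.00 (adjusted p = 0.0112, edgeR), and without young replicate 2 the value of CBR3 was 0.41. AKR1B1 (95% interval of the log2FC −0.50 to 0.39) and AKR1C3 (−1.20 to 0.40) overlapped between the groups.

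Against 6 days of ICM, 6 of the 8 genes were called lower in MetaICM and none higher, against 12.0% of all genes called lower and 15.7% higher, with a median log2FC of −2.49. Against 3 days, 7 were called lower and none higher, against 10.3% lower and 13.1% higher, with a median of −2.99. In both comparisons, both MetaICM libraries lay below both ICM libraries for each of the 8 genes, as they did for 37.8% of all genes tested against 6 days and 35.7% against 3 days. AKR1B10 was 63.0-fold lower than after 6 days (log2FC −5.98 ± 0.13, adjusted p = 8.03e-19, edgeR), and AKR1C1 35.2-fold lower (log2FC −5.14 ± 0.09, adjusted p = 6.94e-20, edgeR). AKR1C2 was 21.1-fold, AKR1C3 6.16-fold, AKR1B1 5.15-fold and CBR3 2.19-fold lower than after 6 days. AKR1A1 at −0.50 ± 0.08 and CBR1 at −0.53 ± 0.09 missed the cutoff on the log2FC, with adjusted p of 2.15e-05 and 4.44e-05 (edgeR). Against 3 days, AKR1A1 had a log2FC of −0.14 ± 0.09 (adjusted p = 0.232, edgeR), and the smallest of the 7 calls were CBR1 at −0.82 ± 0.13 and CBR3 at −0.81 ± 0.21. Those 2 were lost without 1 library: CBR1 without ICM_3days replicate 1 (log2FC −0.58) and CBR3 without MetaICM replicate 2 (adjusted p = 0.0780, edgeR).

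Lists of related genes show which enzymes outside the 8 moved in the same libraries, and their log2FC are given for 3 and then 6 days. The calls in each list stand beside 8.85% of all genes called higher and 13.2% lower after 3 days. After 6 days these shares were 13.3% and 17.2%. Of 12 other aldo-keto reductase genes, 11 were in the tables and 8 could be tested against young cells. After 3 days of ICM, 2 of the 8 were called higher and 1 lower (median log2FC 0.33), and after 6 days 3 higher and 1 lower (0.46). KCNAB2, an aldo-keto reductase fold protein that serves as a potassium channel subunit, rose (log2FC 2.18 ± 0.23 and 2.36 ± 0.21), while its relative KCNAB3 fell (log2FC −0.95 ± 0.29 and −0.85 ± 0.27). AKR7L was called higher after 6 days, at 1.33 ± 0.44. AKR1C4, the liver form of the AKR1C steroid reductases, had 3 and 0 counts in young cells, 22 and 18 after 3 days and 15 and 15 after 6 days, a ratio of 10.5-fold (95% counting interval 3.35 to 53.2) and 7.72-fold (95% counting interval 2.40 to 39.5) of summed, scaled counts. AKR1C8P, a pseudogene of the same locus, had 0 and 1 counts in young cells and 12 and 11 after 3 days, a ratio of 18.2-fold (95% counting interval 2.95 to 748). The coding sequence of AKR1C4 is 88.5% identical to that of AKR1C1, and whether misplaced pairs of AKR1C1 enter these few counts was not tested. AKR1E2 was not called (log2FC 0.12 ± 0.30 and 0.45 ± 0.26).

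Of 26 other short-chain dehydrogenases, 23 were tested, and 5 were called higher after 3 days and 7 after 6 days, with none lower (median log2FC 0.21 and 0.27). Among all genes, 8.85% and 13.3% were called higher and 13.2% and 17.2% lower at these times. The largest was HSD11B1, which regenerates cortisol from cortisone, with log2FC of 3.04 ± 0.24 and 2.37 ± 0.25. SPR, which completes the synthesis of tetrahydrobiopterin, was also called higher at both times, with 0.86 ± 0.25 and 1.30 ± 0.21. Among 14 quinone and enone reductases and alcohol dehydrogenases, 13 were tested, with 4 called higher and 1 lower after 3 days and 3 higher and 1 lower after 6 days (median 0.26 and 0.37). PTGR1, a prostaglandin reductase, rose by 3.50 ± 0.17 and 3.62 ± 0.16 on the log2 scale. The quinone reductases NQO1, at 2.35 ± 0.14 and 2.64 ± 0.13, and NQO2, at 0.92 ± 0.18 and 1.32 ± 0.18, were called higher at both times, and TP53I3 after 3 days, at 1.14 ± 0.14. ADH1B, an alcohol dehydrogenase, had a log2FC of −3.80 ± 0.50 and −3.70 ± 0.37 and was called lower. Its summed counts were 150 in young cells and only 14 after 3 days and 15 after 6 days.

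The NRF2 pathway was examined as a list of 11 genes for the factor and its regulators and a list of 23 of its well-known targets outside these families, of which NQO1 is also in the list above. Of the 11, 4 were called higher at each time and none lower (median log2FC 0.23 and 0.19). The shares of all genes were 8.85% and 13.3% called higher and 13.2% and 17.2% lower. NFE2L2 itself was not called, with log2FC of 0.09 ± 0.14 after 3 days (95% interval −0.21 to 0.39) and 0.15 ± 0.14 after 6 days (−0.15 to 0.46). BACH1, a repressor of the same DNA element, was not called either (0.08 and 0.01). KEAP1 rose (log2FC 1.12 ± 0.16 and 0.98 ± 0.14), as did SQSTM1, whose product p62 binds KEAP1 (log2FC 2.47 ± 0.21 and 2.56 ± 0.21), and MAFG, a partner of NRF2 on DNA (log2FC 0.95 ± 0.16 and 1.26 ± 0.14).

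Of the 23 targets, 20 were called higher and none lower after 3 days (median log2FC 1.61) and likewise after 6 days (1.62). Among all genes, 8.85% and 13.3% were called higher and 13.2% and 17.2% lower at these times. The largest were HMOX1, which degrades heme (log2FC 3.55 ± 0.30 and 4.04 ± 0.31), and OSGIN1 (3.42 ± 0.23 and 3.94 ± 0.24). SRXN1, which repairs peroxiredoxins, had 2.81 ± 0.21 and 2.76 ± 0.16, and GCLM, a subunit of the enzyme that starts glutathione synthesis, 2.24 ± 0.12 and 2.86 ± 0.12. In MetaICM against young cells, 2 of the 23 were called higher and 2 lower (median 0.08), shares near the 7.41% and 8.99% of all genes. The ferritin genes FTL (0.67 ± 0.15) and FTH1 (0.92 ± 0.29) were the higher ones, and CES1 (−1.46 ± 0.43) and SLC7A11 (−0.68 ± 0.12) the lower ones. In MetaICM against 6 and against 3 days of ICM, 20 and 22 were called lower and none higher. Of all genes, 12.0% and 10.3% were called lower and 15.7% and 13.1% higher in these comparisons. AKR1B1, AKR1B10, AKR1C1, AKR1C2 and AKR1C3 had larger log2FC at both times than the median of this list, AKR1A1 and CBR1 smaller ones, and CBR3 a smaller one after 3 days and a larger one after 6 days.

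**Figure D4:**
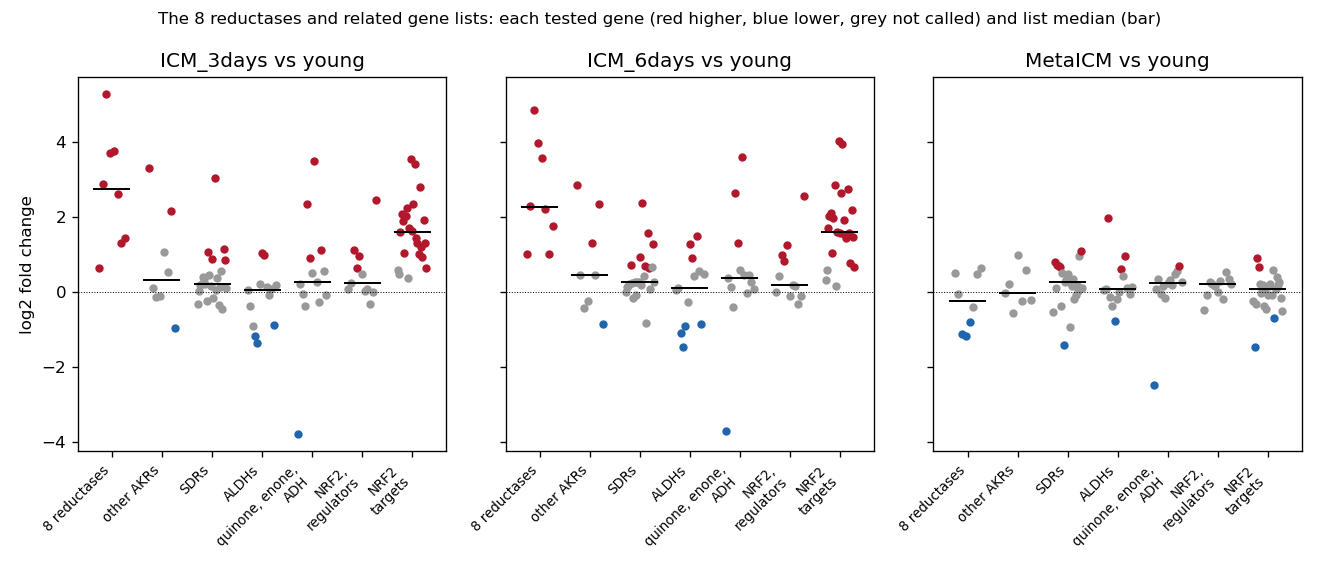
log2 fold change (vertical axis) of every tested gene (points) among the 8 reductases and 6 lists of related genes in 3 comparisons with young cells, with the median of each list (bar). Red points were called higher, blue lower and grey not called. With ICM the reductases and the NRF2 targets lie mostly above 0, and in MetaICM their medians are −0.23 and 0.08.

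Genes beside the 8 were examined to show whether adjacent genes moved as well. Within 100 kb of any of them lie 19 other genes, of which 12 were tested after each ICM treatment, with 3 called higher and 2 lower at both times, against 8.85% of all genes called higher and 13.2% lower after 3 days and 13.3% and 17.2% after 6 days. The 2 lower calls are a share near that of all genes. Beside AKR1A1, PRDX1, a peroxidase that is also in the list of NRF2 targets, rose (log2FC 1.32 ± 0.15 and 1.52 ± 0.14), as did MMACHC, which processes vitamin B12 (1.19 ± 0.18 and 1.10 ± 0.21), while NASP, a histone chaperone, fell (−0.76 ± 0.14 and −0.998 ± 0.14). The bodies of MMACHC and PRDX1 overlap on opposite strands, and pairs counted without strand cannot be told apart in a stretch that both cover. TESK2, CCDC163, CCDC17, GPBP1L1 and RPS15AP10 in the same region were not called after ICM. On chromosome 21, DOP1B, 10220 bases beyond CBR3, fell (log2FC −2.03 ± 0.14 and −1.75 ± 0.12), and SETD4 was not called (0.33 ± 0.15 and 0.24 ± 0.14). On chromosome 10, AKR1C4 was the tested neighbour, and on chromosome 7 there was none. Between MetaICM and young cells, 1 of 11 tested neighbours was called, RPS15AP10, which was lower (log2FC −0.97 ± 0.23). Of all genes, 7.41% were called higher and 8.99% lower in that comparison.

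**Figure D5:**
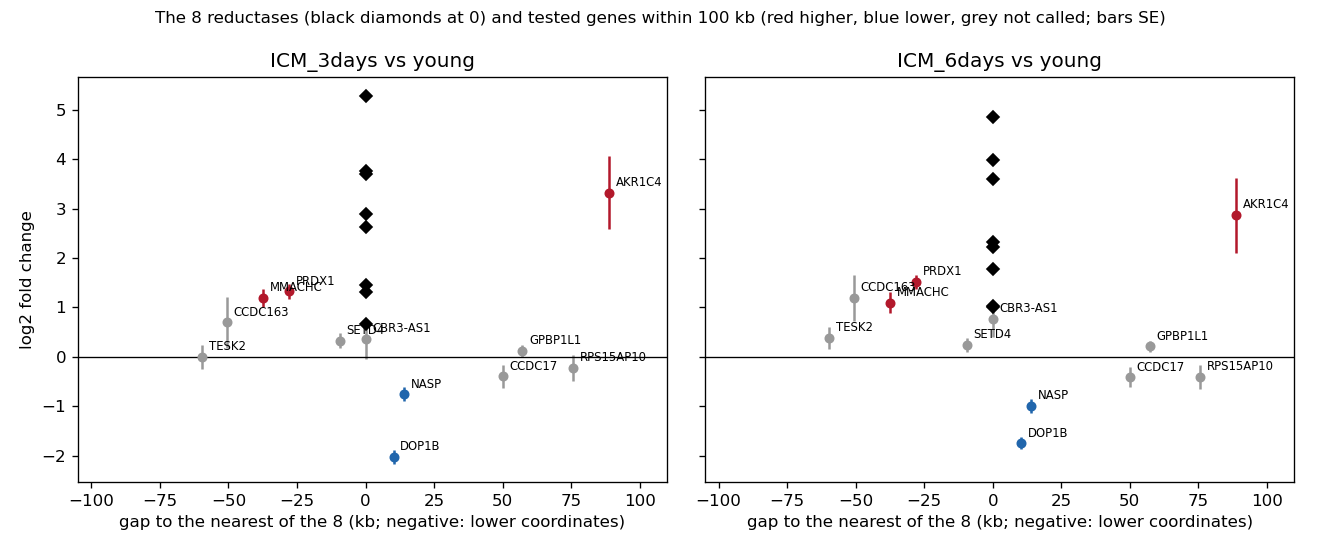
log2 fold change against young cells (vertical axis) of tested genes by their distance in kb from the nearest of the 8 reductases (horizontal axis), with SE bars, and the 8 reductases as black diamonds at distance 0. Red points were called higher, blue lower and grey not called, and DOP1B and NASP lie below 0 within 20 kb of a reductase.

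Across all 8 libraries, the genes with the most similar course were found by the Euclidean distance of log2 CPM, taken relative to the mean of the young libraries, among 16591 genes. The nearest to AKR1B10 was ZNF385D (0.95), a zinc finger gene, followed at a wider distance by the protease gene MMP10 (1.83) and the hexokinase-like gene HKDC1 (2.06). ZNF385D had only 3 counts over both young libraries and 3 over both MetaICM libraries, so its course rests on values near the floor there. AKR1C1 had ANXA10 (0.78), an annexin, KYNU (0.79), which encodes kynureninase, and HMOX1 (1.21) as its nearest, and AKR1C2 had the same 3, at 0.98 to 1.02. For AKR1B1 these were FER1L4 (0.71), SRXN1 (0.72) and SQSTM1 (0.81), and for AKR1C3 OSGIN2 (0.82), FER1L4 (0.88) and CABYR (0.93). CBR1 was nearest to NECAB3 (0.37), FADS2 (0.42) and TNFRSF10A (0.46), CBR3 to CLU (0.35), ALDOA (0.50) and PPP2R5B (0.51), and AKR1A1 to VCP (0.14), RAB29 (0.17) and GMPR2 (0.17). Among the 8 themselves, AKR1B1 and AKR1C3 were closest to each other, at 0.67, followed by AKR1C1 and AKR1C2 at 0.76, and AKR1A1 and AKR1B10 were farthest apart, at 8.85. Such distances grow with the size of a gene's change and describe these 8 libraries only.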

How the data were processed

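Factory RNA-Seq libraries of IMR90 cells in 4 conditions, 2 per condition, were used. Per the file headers, the authors deposited raw counts of read pairs on the exons of each RefSeq gene (hg19), made with featureCounts 1.6.3 without a strand option and with both ends mapped and chimeric pairs left out, after alignment with STAR 2.6.0c. Their own nascent RNA analysis used intronic reads, which were not analysed here. Nothing in the labels says whether libraries of one condition came from separate cultures, so p-values measure only the spread between these libraries.

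Each pair of conditions was fitted separately with edgeR 4.0.16 (R 4.3.3, limma 3.58.1): TMM factors, filterByExpr with its count minimum at 10, the quasi-likelihood test and Benjamini-Hochberg adjustment over all genes tested. Calls required an adjusted p under 0.05 and an absolute log2FC over 0.6, since the authors use this fold cutoff. SEs and 95% intervals follow from the same test, and all tests are two-sided. The study's methods use RUVs and DESeq2 at an adjusted p of 0.01. RUVs was not run, while DESeq2 1.42.0 and the stricter threshold were among the alternatives, next to other scaling factors and filters, 1 fit of all libraries, thinning to 12095123 counts, the summed AKR1C genes, a replicate block and each library left out. Levels are CPM with TMM factors from all 8 libraries. They are relative to the counted RNA of each library, so a change in RNA per cell cannot be read from them. Intervals of ratios of few counts are exact and cover counting error only. Fits were tested on simulated counts.

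Exon windows and coding identity (GENCODE v44 lifted to GRCh37, Biopython 1.88) were computed from the GRCh37 primary assembly, and promoter windows were taken from RefSeq (GRCh38.p14). AKR1B10 and CBR3 have no entry among the latter. The 8 genes and the lists were chosen with earlier results of these data known. The genes named are the 8, those called in a list with the largest log2FC (up to 3 per direction and comparison, not all printed), NFE2L2, KEAP1, BACH1, NQO1, AKR1C4, AKR1B15, AKR1E2 and CBR3-AS1, the tested neighbours and the 3 nearest genes by course. Tables were handled with pandas 2.3.3 and numpy 2.4.6 in Python 3.11.15, and intervals and plots made with scipy 1.17.1 and matplotlib 3.10.9.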

Additional observations from a re-analysis of the deposited data

Results flagged for a closer look

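The 2 times of ICM treatment share their control, so whether an effect differed between them was read from the direct test of 6 against 3 days (edgeR's quasi-likelihood test). By an adjusted p under 0.05 alone, 2 of the 8 genes were higher after 6 days and 2 lower, each by less than the cutoff of 0.6 used for calls, against 9.66% of all genes higher and 9.66% lower. The log2FC after 6 days minus that after 3 days was 0.35 for AKR1A1 (adjusted p = 0.0209, edgeR) and 0.26 for AKR1C1 (adjusted p = 0.0354, edgeR), which were higher in both 6-day libraries. It was −0.59 for AKR1B1 (adjusted p = 1.79e-04, edgeR) and −0.44 for AKR1B10 (adjusted p = 0.00230, edgeR), which were lower in both. Except for that of AKR1B1, these differences were lost under some alternatives. The adjusted p of AKR1A1 (edgeR) was 0.0694 after thinning to the smallest library. That of AKR1C1 (edgeR) was 0.0565 with library totals, 0.364 in 1 fit of all 8 libraries and 0.0899 for the summed AKR1C genes. Those of AKR1A1, AKR1C1 and AKR1B10 were also over 0.05 with a library of ICM_6days left out.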

How the results depend on the processing

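With 2 libraries per condition, leaving out 1 leaves a single library whose spread is taken from the other condition. The 8 higher calls against young cells after 3 and after 6 days held under every alternative that kept all libraries, and all but that of AKR1A1 after 3 days held with each library left out (7 to 8 genes called after 3 days and 8 after 6 days). The 6 lower calls of MetaICM against 6 days held throughout, and 6 to 7 against 3 days did with a library left out.

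Between 6 and 3 days, no fold cutoff gave 2 genes higher and 2 lower in place of 0, library totals gave 1 lower, and leaving out a library gave 0 to 1 lower. Between MetaICM and young cells, the count of genes higher went from 0 to 1 with no fold cutoff, 1 with all genes that had a count and 2 after thinning, and ran from 0 to 2 with a library left out. The count of genes lower went from 3 to 1 at an adjusted p under 0.01, to 1 with DESeq2, to 2 after thinning, where AKR1C2 was no longer called (log2FC −0.593, adjusted p = 0.115, edgeR), and to between 1 and 3 with a library left out. The cause was not tested. Against 3 days, thinning raised the adjusted p of CBR3 in MetaICM to 0.0541 (edgeR).

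Signs turned in values that were not called. Between 6 and 3 days, AKR1C2 and AKR1C3 took the value of the summed AKR1C genes, 0.21, which by construction follows AKR1C1. Between MetaICM and young cells, the log2FC of AKR1B1 was 0.00015 with the replicate block and ran from −0.39 to 0.42 with a library left out, that of AKR1C3 from −0.684 to 0.0603.

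Over 2 pairs, same-numbered libraries deviated together with r = 0.15 (3 days against young), 0.043, 0.054, −0.022 and 0.015, and −0.11 (MetaICM against 3 days), so the numbers were not taken to pair the libraries. The replicate block changed no count of calls among the 8 genes (8, 8, 0, 3, 6 and 7 in the 6 comparisons), and a crossed pairing of MetaICM with 3 days, chosen after seeing the data, also gave 7. Depth limits AKR1C3, CBR3 and AKR1B10 most, with 15 to 86 counts per library in young cells and MetaICM.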

Other observations

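With log2FC given ± SE after 3 and then 6 days of ICM, some genes of enzymes in aldehyde and retinoid metabolism were called higher and others lower. Of 17 aldehyde dehydrogenase genes, which oxidise aldehydes to acids, 13 were tested against young cells. After 3 days of ICM, 2 were called higher and 3 lower (median log2FC 0.07), against 8.85% and 13.2% of all genes. After 6 days, 3 were called higher and 4 lower (0.11), against 13.3% and 17.2% of all genes. ALDH3A2, which oxidises fatty aldehydes, rose (log2FC 1.05 ± 0.17 and 1.27 ± 0.16), and so did ALDH3B1 (1.00 ± 0.15 and 0.92 ± 0.13). The mitochondrial ALDH1B1 fell (−1.18 ± 0.16 and −1.46 ± 0.15), as did ALDH1L2, an enzyme of mitochondrial folate metabolism (−1.37 ± 0.13 and −0.91 ± 0.12), and ALDH7A1 (−0.88 ± 0.14 and −0.86 ± 0.13). In MetaICM against young cells, 3 of 14 tested aldehyde dehydrogenases were called higher and 1 lower, against 7.41% and 8.99% of all genes. ALDH1A1, which makes retinoic acid, was among the higher ones (log2FC 1.97 ± 0.57, adjusted p = 0.0283, edgeR). That value rests on few counts, 9 over both young libraries and 53 over both MetaICM libraries.

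Of the short-chain dehydrogenases listed above, DHRS3 and RDH10 act on retinal and retinol and were called between the 2 times, whereas RDH11, RDH13 and RDH14 were not. DHRS3, which reduces retinal, was called higher after 3 days (log2FC 1.06 ± 0.13) and had a log2FC of −0.09 ± 0.12 after 6 days, and the direct test of 6 against 3 days gave −1.15 ± 0.10 (adjusted p = 7.90e-08, edgeR). RDH10, which oxidises retinol, had a log2FC of 0.14 ± 0.12 after 3 days and rose after 6 days (1.59 ± 0.11), with 1.45 ± 0.09 between them (adjusted p = 1.34e-09, edgeR).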
